A study of Mus musculus with 36 samples.

Results

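Liver DNA methylation was compared between 3 B6 dams and 3 C3 dams, the mothers of reciprocal F1 crosses. The 6 dams are 6 of the 24 animals with whole-genome bisulfite libraries, and they were chosen by their labelled group alone. B6 denotes the inbred strain C57BL/6N and C3 the inbred strain C3H/HeN. Each B6 dam had been mated with a C3 sire at week 10 and bore a B6C3F1 litter, and each C3 dam had been mated with a B6 sire and bore a C3B6F1 litter. Pups were weaned when the mothers were 16 weeks old, and all parents and F1 animals were sacrificed at 20 weeks. No transgene or drug is given for any animal. Because every B6 dam carried hybrid pups of one cross and every C3 dam those of the other, strain and the cross carried cannot be told apart in the dams alone. The 6 sires, 3 of each strain, and the 6 F1 daughters, 3 B6C3F1 and 3 C3B6F1, served as checks. Replicates were separate animals.

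In mammals a methyl group is placed on the cytosine of most CpG dinucleotides, where a C is followed by a G, and the pattern is copied at cell division by Dnmt1. CpG-dense promoters usually stay unmethylated, and enhancers that are bound by transcription factors usually lose methylation, whereas the rest of the genome is largely methylated. In hepatocytes, the main cell type of liver, FOXA, HNF4A, C/EBP, HNF1 and ONECUT factors bind such enhancers. A single-nucleotide variation (SNV) between inbred strains can remove a CpG itself or change a base in a factor's binding sequence. An F1 hybrid holds 1 chromosome set of each strain in the same nucleus, so a level midway between the parents is what a purely allelic difference would give.

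Bisulfite reads were counted by the submitters as methylated or unmethylated at each CpG. The table held 18887127 autosomal CpGs, and the dams had between 365740739 and 606267810 autosomal counts each, or 19.4 to 32.1 reads per CpG. Counts were summed in fixed windows of 500 bp, and a window was tested when it held at least 5 CpGs and at least 30 counts in every dam, which 1463020 windows did. A methylation level is the percent of counts that were methylated, and a difference between levels is given in percentage points. A window is called here when limma's moderated test on the log2 ratio of methylated to unmethylated counts gave a Benjamini-Hochberg adjusted p below 0.05 over all windows and the group means differed by at least 20 points. Promoter methylation of the hepatocyte markers had a median of 25.0 to 29.6% per dam over 11 genes. The same median was 78.9 to 87.1% over the 4 Kupffer cell markers that could be measured and 80.2 to 84.1% over 6 leukocyte markers. It was 66.5 to 69.0% over 6 endothelial, 21.4 to 29.1% over 5 stellate cell and 49.1 to 54.0% over 4 cholangiocyte markers. Over 4 genes of other organs it was 46.6 to 49.3%. Single genes of a type could lie far from its median. Their means over the dams ran from 3.44 to 77.95% in endothelial and 0.741 to 55.2% in stellate cell markers. They ran from 1.13 to 72.2% in cholangiocyte markers and 18.6 to 55.7% in hepatocyte markers. Methylation at a promoter does not measure its expression, so these values give no share of cells, and the part of cell composition in the results below was not tested.

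Over all autosomal CpGs the C3 dams were methylated slightly more than the B6 dams. The B6 dams stood at 75.3, 75.7 and 75.05%, a mean of 75.3% ± 0.348 (SD, n = 3). The C3 dams stood at 76.3, 77.1 and 77.0%, a mean of 76.8% ± 0.456 (SD, n = 3). No B6 dam reached the lowest C3 dam, and the difference of −1.45 points (B6 minus C3) had a two-sided exact permutation p of 0.1, the smallest that 3 against 3 animals can give. Averaged over CpGs with equal weight instead of over counts, the difference was −0.684 points, with the same p. In the sires the same difference was −0.375 points with an exact permutation p of 0.2. The excess in C3 was spread thinly: the median window differed by −0.576 points, C3 was higher in 59.9% of windows, and 86.3% of windows were within 5 points of each other. Within a strain the dams varied by a median SD of 2.10 points in B6 and 2.27 points in C3.

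Against this background, 7922 windows (0.541% of those tested) were called between the strains. Of these, 3870 were higher in B6 (0.265%) and 4052 were higher in C3 (0.277%). The called windows formed 7011 regions of touching windows of one direction, of which 6233 were a single window, 674 were 2 windows and 104 were 3 or more, with at most 7. The 2 strains did not overlap in 7921 of the 7922 called windows, beside 17.8% of all windows. The median size of the difference was 25.9 points (quartiles 22.4 and 33.3), with 1068 windows at 40 points or more and 154 at 60 points or more. Windows higher in B6 had a median of 75.1% in B6 dams and 44.0% in C3 dams, and windows higher in C3 had a median of 43.9% in B6 dams and 74.4% in C3 dams. A typical called window was therefore highly methylated in one strain and intermediate in the other.

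**Figure D1:**
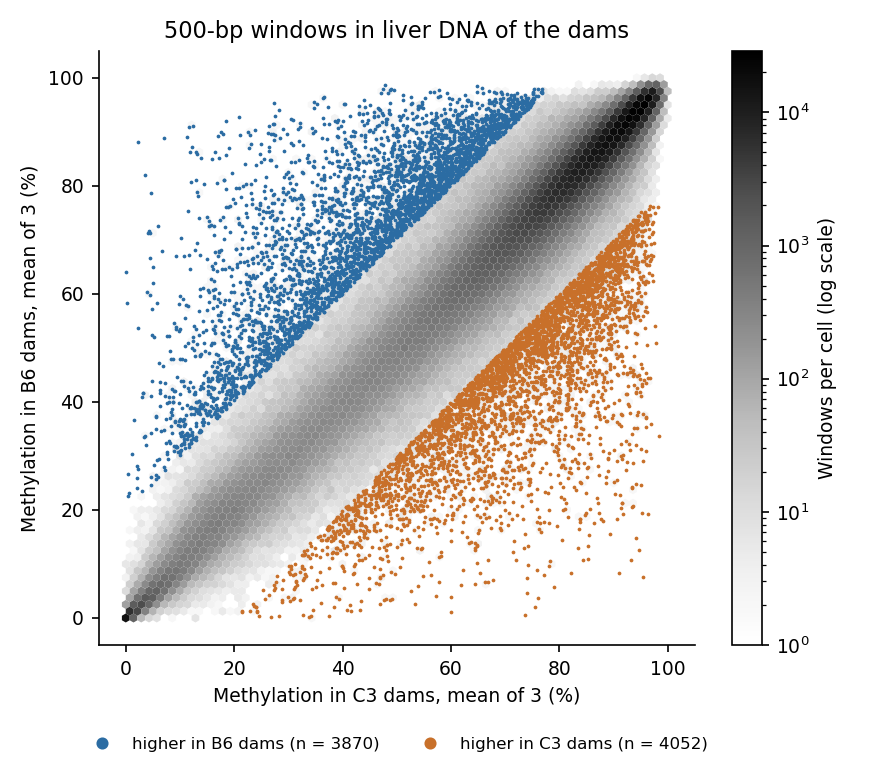
Mean methylation of the 3 B6 dams (vertical axis, percent) against that of the 3 C3 dams (horizontal axis, percent), with grey cells for the number of tested windows (log scale) and 1 point per called window. The 3870 windows higher in B6 lie above the diagonal and the 4052 higher in C3 below it, at least 20 points away by the rule, while most windows lie on the diagonal at high methylation.

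The sequences of 3 regions are shown first because they are among the largest region and promoter differences between the dams. The stretches are from mm9, the mouse reference assembly, which has the B6 base at every substitution printed here. Capitals mark the CpGs counted in the table.
Intergenic region on chromosome 14, chr14:48527501-48527800, plus strand: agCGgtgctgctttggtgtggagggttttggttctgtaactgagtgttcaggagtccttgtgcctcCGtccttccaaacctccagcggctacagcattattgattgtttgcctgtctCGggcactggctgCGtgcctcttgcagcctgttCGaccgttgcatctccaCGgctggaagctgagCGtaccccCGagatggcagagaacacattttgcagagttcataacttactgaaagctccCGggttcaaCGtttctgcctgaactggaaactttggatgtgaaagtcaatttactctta
Akr1e1 promoter, chr13:4608017-4608316, plus strand: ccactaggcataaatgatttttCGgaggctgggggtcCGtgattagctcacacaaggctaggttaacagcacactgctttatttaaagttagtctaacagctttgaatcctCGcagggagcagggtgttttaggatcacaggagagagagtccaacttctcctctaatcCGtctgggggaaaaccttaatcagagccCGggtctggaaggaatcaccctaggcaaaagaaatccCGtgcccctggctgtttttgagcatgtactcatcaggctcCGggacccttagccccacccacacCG
P2ry12 promoter, chr3:59066600-59066899, plus strand: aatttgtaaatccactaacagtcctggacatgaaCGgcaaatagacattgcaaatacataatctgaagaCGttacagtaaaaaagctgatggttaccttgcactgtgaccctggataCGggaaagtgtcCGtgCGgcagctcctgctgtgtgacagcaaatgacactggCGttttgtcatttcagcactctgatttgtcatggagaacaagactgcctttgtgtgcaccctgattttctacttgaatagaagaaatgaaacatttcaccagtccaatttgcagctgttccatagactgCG
Substitutions in these stretches are written with the B6 base, the position counted from 1 at the printed 5′ end, and the C3 base. The first stretch held C86T, A99C and T125C, and the Akr1e1 and P2ry12 stretches held none.

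Several well-covered regions were far more methylated in B6 than in C3. In an intron of Gm7247 (ENSMUSG00000068399.4), a gene model in a vomeronasal receptor cluster, adjacent stretches at chr14:52100001-52102000 and chr14:52102501-52103000 (mm9) differed by 67.4 and 74.1 points. The second of them stood at 80.8, 77.5 and 77.8% in B6 dams and 5.38, 3.19 and 5.18% in C3 dams (log2 ratio 6.19 ± 0.25 (SE), limma with Benjamini-Hochberg adjustment, adjusted p = 7.17e-10). Sires showed the same split, at 73.1, 70.7 and 78.8% in B6 and 6.86, 6.09 and 5.54% in C3, and the daughters lay between them at 60.7% ± 5.91 (SD, n = 3) in B6C3F1 and 56.8% ± 5.93 (SD, n = 3) in C3B6F1. In intergenic sequence 27985 bp from Zmynd8, a reader of histone marks, chr2:165752501-165753500 stood at 90.7, 93.1 and 84.4% in B6 and 18.8, 23.8 and 15.6% in C3. An exon of Myo5b, a myosin motor of membrane traffic, stood at 85.8, 85.9 and 85.6% in B6 and 17.4, 20.1 and 17.9% in C3 over 12 CpGs (chr18:74904001-74904500). An intron of Ddah1, which degrades asymmetric dimethylarginine, stood at 91.2, 87.1 and 93.6% in B6 and 21.2, 22.5 and 28.4% in C3 (chr3:145436001-145437000). In none of these regions did the strains overlap, as in 7921 of the 7922 called windows from which they were picked.

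Among regions more methylated in C3 that held at least 10 CpGs at 10 reads per CpG in each dam, mostly outside TG or CA repeats, the largest difference was at chr14:48527501-48528000, intergenic and 171487 bp from the nearest start, that of Gm6055. The B6 dams stood at 14.9, 12.1 and 19.8% and the C3 dams at 91.6, 88.6 and 87.5% over 11 CpGs, a difference of 73.7 points (limma adjusted p = 1.17e-09). A promoter was also among them: the window pair at chr13:4607501-4608500 covers the start of Akr1e1 (ENSMUSG00000045410.10), an aldo-keto reductase expressed in liver. B6 dams were nearly unmethylated there, at 3.33, 8.74 and 4.71%, and C3 dams were methylated at 83.1, 79.1 and 63.2% over 18 CpGs, with 584149 bp to the nearest SNV. Other such regions lay 21855 bp from Creb3l2, a membrane-bound transcription factor of the secretory pathway (chr6:37414001-37415000, 12.3, 8.19 and 9.34% against 88.5, 71.0 and 78.6%), and 34037 bp from Nrn1, which encodes neuritin (chr13:36787501-36788500, 10.6, 10.6 and 10.6% against 72.1, 79.3 and 76.4%). A region 37548 bp from Fabp5, a fatty acid binding protein, stood at 15.2, 16.1 and 19.5% in B6 and 85.6, 86.0 and 83.8% in C3, with 32.4 reads per CpG in a B6 dam and 12.4 in a C3 dam (chr3:9974001-9975000). Near Nrn1 the depth was 28.2 reads per CpG in a B6 dam and 14.3 in a C3 dam. C3 dams were high and close together in all of these except at Akr1e1 and near Creb3l2, where they were more spread out.

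The region at chr13:4941501-4942500, with 34 CpGs and no SNV for 638609 bp, was more variable in B6. The B6 dams stood at 15.2, 27.0 and 33.2% and the C3 dams at 95.5, 94.6 and 95.6%. The B6 sires also differed among themselves, at 3.76, 30.0 and 6.94%, whereas the C3 sires stood at 95.5, 95.3 and 96.8%. The B6C3F1 daughters, born to B6 dams, stood at 68.6, 89.2 and 87.4% and the C3B6F1 daughters at 90.5, 95.4 and 96.7%. All 6 daughters were therefore closer to C3 than to B6. Every C3B6F1 daughter was above every B6C3F1 daughter. The daughters of the crosses also did not overlap in 12.98% of called windows and in 11.2% of all windows. The sons did overlap here, at 87.1, 94.8 and 73.01% in B6C3F1 and 94.98, 92.5 and 84.8% in C3B6F1. A difference between the crosses was not tested at this region. The second of its windows, with 29 CpGs, had a limma adjusted p of 1.09e-09, and the first had one of 0.0453, which rose past 0.05 under 9 alternatives, to 0.154, 0.199 and 0.210 without C3 dam 1, 2 and 3.

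**Figure D2:**
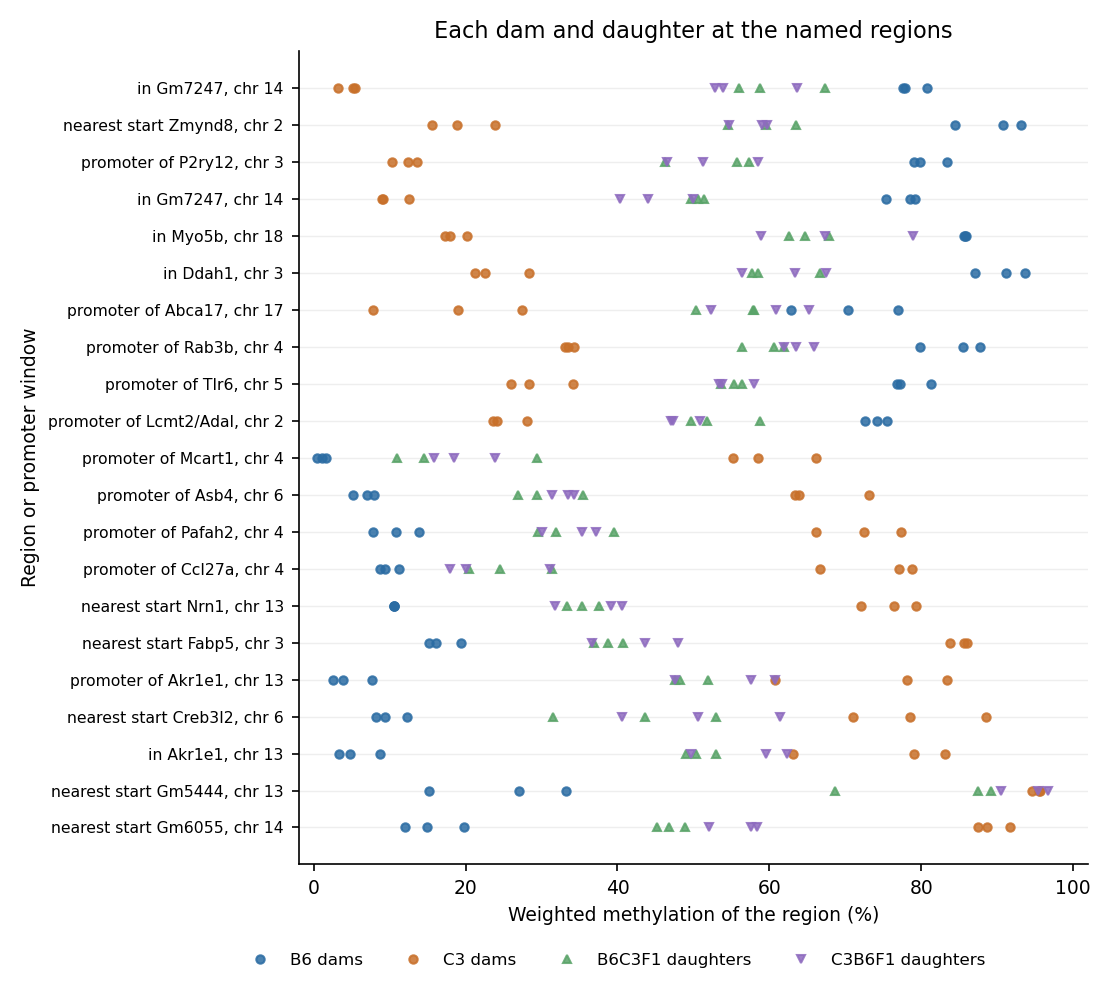
Methylation (percent) at named regions, with 1 point per animal for B6 dams, C3 dams and the F1 daughters of both crosses, for named regions and promoters of large difference (Akr1e1 as its region and as its promoter window). B6 and C3 dams are separated in each region drawn, as in nearly all called windows, and the daughters of both crosses lie between them in most.

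The longest runs of called windows covered a developmental gene and 3 stretches near less studied ones. Wnt5a, a secreted signalling protein of tissue patterning, was more methylated in C3 over 6 windows with 147 CpGs at its promoter and exons (chr14:29322001-29325000). The B6 dams stood at 30.6, 28.1 and 31.5% and the C3 dams at 70.4, 68.7 and 65.3%, with no SNV inside and 1760 bp to the nearest. The largest adjusted p among the 6 windows was 0.000532 (limma). A run of 7 windows 15999 bp from C1ql1, a complement-related secreted protein, was also higher in C3, at 24.5, 22.3 and 24.2% in B6 and 58.9, 49.7 and 55.7% in C3 (chr11:102824001-102827500). Higher in B6 were 5 windows 171084 bp from Srek1, a splicing factor gene, at 83.4, 85.2 and 84.2% against 33.0, 32.3 and 30.3% (chr13:104381001-104383500). Another 5 windows, 24893 bp from 9430015G10Rik, stood at 93.8, 92.8 and 93.6% against 50.8, 40.2 and 51.5%, with a C3 depth of 12.3 reads per CpG beside 23.8 in B6 (chr4:155509001-155511500). None of the 4 runs had overlapping strains, as in nearly all called windows.

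Promoter windows, from 1000 bp before to 500 bp after a coding start, were called in 0.697% of 73906 windows, and more often in the direction of C3 (331 windows, 0.448%) than of B6 (184 windows, 0.249%). Intergenic windows went the other way, with 1741 higher in B6 (0.266%) and 1511 higher in C3 (0.231%). Exons (0.544%) and introns (0.572%) lay near the background. Most called windows were of intermediate methylation, where a difference of 20 points has room on both sides: 4.05% of windows with a mean of 40 to 60% were called, but 0.0391% of those at 80 to 100% and 0.106% of those below 20%. Among windows at 20 to 80% mean methylation alone, 1.64% of promoter windows were higher in C3 and 0.882% higher in B6. The same windows in intergenic sequence gave 0.641% and 0.727%. These shares are descriptions, and the differences between them were not tested.

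Promoters with the largest excess in B6 were those of P2ry12, Abca17, Rab3b, Tlr6 and Adal. At P2ry12, the ADP receptor of platelets and microglia, the B6 dams stood at 79.0, 83.3 and 79.9% and the C3 dams at 12.5, 13.5 and 10.3% (difference 68.7 points, log2 ratio 4.89 ± 0.22 (SE), limma adjusted p = 1.17e-09). The window, chr3:59066501-59067000, is also inside Med12l, on whose span P2ry12 lies. Tlr6, a Toll-like receptor for bacterial lipopeptides, had 77.3, 76.8 and 81.3% in B6 and 26.0, 28.4 and 34.1% in C3 over 16 CpGs (chr5:65351001-65351500). Rab3b, a small GTPase of vesicle release, had 79.9, 87.8 and 85.5% in B6 and 33.5, 33.1 and 34.3% in C3. The promoter that Adal shares with Lcmt2 had 74.2, 72.6 and 75.5% in B6 and 28.1, 24.1 and 23.7% in C3. Abca17, a lipid transporter gene, had 62.9, 70.4 and 76.9% in B6 and 18.97, 27.4 and 7.81% in C3 over 5 CpGs, the widest spread of the group. Its depth was 16.1 reads per CpG in C3 beside 35.9 in B6.

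Promoters with the largest excess in C3 were those of Akr1e1, Ccl27a, Pafah2, Asb4 and Mcart1. The Akr1e1 window, with 12 CpGs of which 8 are in the stretch printed above, stood at 2.52, 7.62 and 3.84% in B6 dams and 83.4, 78.2 and 60.7% in C3 dams (log2 ratio -6.01 ± 0.42 (SE), limma adjusted p = 5.80e-07). Pafah2, which degrades platelet-activating factor and oxidized phospholipids, had 13.8, 7.77 and 10.8% in B6 and 72.5, 66.1 and 77.4% in C3 (chr4:133958001-133958500). Its depth was 15.4 reads per CpG in C3 beside 31.4 in B6. Asb4, a SOCS box protein, had 7.05, 8.00 and 5.15% in B6 and 73.1, 63.4 and 63.9% in C3 (chr6:5333001-5333500). Mcart1, a mitochondrial carrier, was close to 0 in B6 dams, at 1.09, 0.402 and 1.58%, and stood at 55.2, 66.1 and 58.6% in C3 dams (chr4:45422001-45422500). At Ccl27a, a chemokine gene with near-identical copies on the same chromosome, B6 dams had 9.44, 11.2 and 8.74% and C3 dams 66.7, 78.8 and 77.1%, but with 11.3 reads per CpG in C3 beside 30.4 in B6, so reads of its copies may be mixed in and the value is uncertain. In the other 4 promoters the highest B6 dam was at 13.8% and the lowest C3 dam at 55.2%.

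Called windows were more frequent where the strains differ in sequence. Of windows with no SNV inside, 0.240% were called, beside 1.03% with 1 SNV, 2.23% with 3 to 4 and 3.29% with 10 or more. Among windows without one, the share fell with distance, from 0.882% when the nearest SNV was 1 to 250 bp away to 0.0683% beyond 50000 bp. In 100-kb bins without any SNV, 228 of 344755 windows were called (0.0661%), 103 higher in B6 and 125 higher in C3. In bins with 400 or more SNVs, 1079 were higher in B6 and 1110 higher in C3 of 93841 (2.33%). Calls higher in B6 and in C3 numbered 1354 and 1387 without an SNV and 2516 and 2665 with one. The least even step was at distances of 1 to 5 kb, with 265 and 186. Chromosomes ranged from 0.352% (chromosome 16) to 0.759% (chromosome 4).

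**Figure D3:**
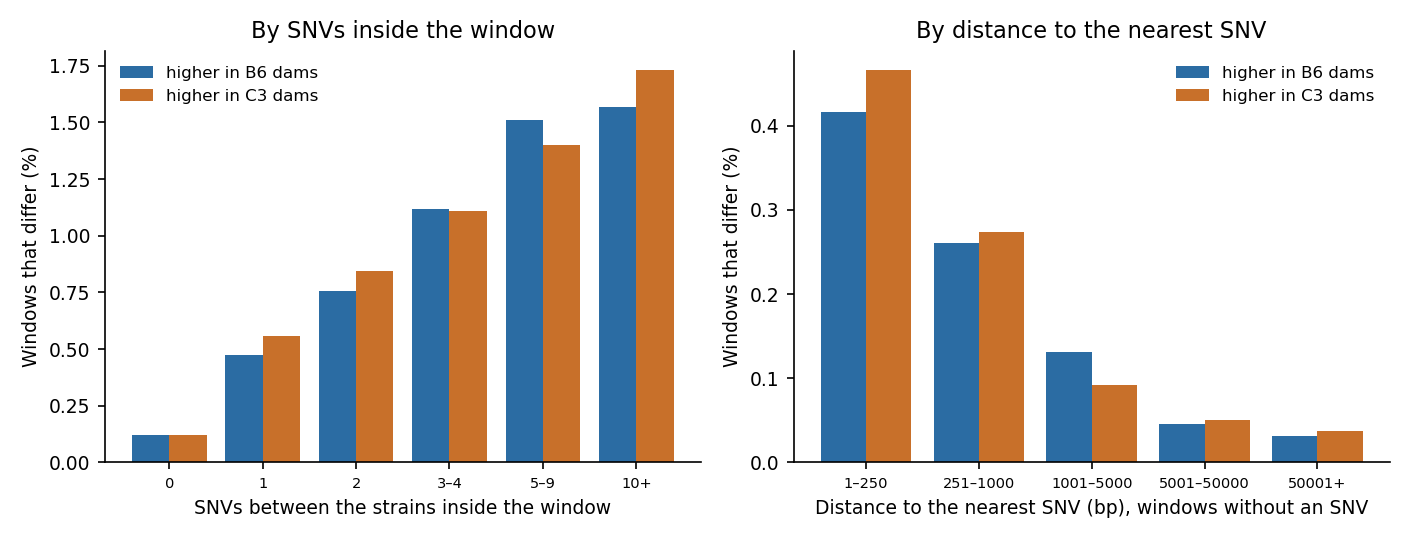
Percent of windows called in the dams, by the number of SNVs inside the window (left) and, for windows without one, by the distance in bp to the nearest SNV (right), with calls higher in B6 and higher in C3 drawn as separate bars. The sum of both bars rises from 0.240% at 0 SNVs to 3.29% at 10 or more, and falls from 0.882% at 1 to 250 bp to 0.0683% beyond 50000 bp.

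Read depth moved with the SNVs. After scaling to each animal's total, C3 dams had a median of 1.02 times the depth of B6 dams over all windows and 0.792 times over called windows, where the 3 C3 dams stood at 0.782, 0.783 and 0.776. The ratio was below 0.67 in 36.1% of called windows, 5.89% of all windows and 17.7% of uncalled windows that held an SNV. It was alike for windows higher in B6 (0.782) and higher in C3 (0.801). All reads were aligned to mm9, which is a genome of the B6 background and not of C3. The part of lost C3 reads in the calls was not tested. Where the ratio lay between 0.67 and 1.5, 0.366% of windows were called, 1.18% with an SNV inside and 0.171% without one.

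The test of single CpGs, a beta-binomial Wald test with p below 1e-05, called 36403 of 18165367 CpGs (0.200%), of which 20298 were higher in B6 and 16105 higher in C3. Their median difference was 50.3 points, 41.7% of them lay in called windows, and 33.5% lay outside any tested window. Called windows held at least 1 such CpG in 5278 cases (66.6%), and 2644 held none. Of 2154 tested CpGs with an SNV on their C or G, 2053 were called higher in B6 and 2 higher in C3 (95.4%), and a T that C3 carries at such a base cannot be told apart from an unmethylated C after bisulfite treatment. CpGs inside a TG or CA repeat gave 866 calls higher in B6 and 4 higher in C3 out of 37985 (2.29%). The direction of the calls at CpGs without an SNV on their C or G, those in repeats included, varied with the distance to the nearest SNV. At 1 to 10 bp 1611 were higher in B6 and 2097 higher in C3 (1.06%), and at 11 to 50 bp 3687 and 4149 (0.734%). More were higher in B6 at 51 to 250 bp (5801 and 5432), beyond 250 and up to 1000 bp (3946 and 2554) and from there up to 10 kb (2408 and 1100), and farther away they were 792 and 771 (0.0215%). The imbalance toward B6 was lost with counts averaged over 250 bp on either side of a CpG (10712 higher in B6 and 10745 higher in C3). It stayed with at least 10 reads in each dam (14816 and 13040) and with thinned counts (14296 and 10124). It also stayed without CpGs within 10 bp of an SNV (16633 and 14006) and without any 1 dam. Its cause was not tested.

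SNVs that make or remove a CpG were compared with SNVs that do not. Values are of all CpGs of the table in the window, which include the few listed CpGs with an SNV on their own C or G. Windows holding SNVs of no effect on CpGs were called in 1.29%, 0.605% higher in B6 and 0.687% higher in C3. Where B6 alone had 1 or more additional CpGs, 1.02% were higher in B6 and 0.903% higher in C3, and where C3 alone had them, 0.740% were higher in B6 and 0.901% higher in C3. With 2 or more CpGs in B6 only the shares were 1.96% and 1.25% of 9571 windows, and with 2 or more in C3 only they were 0.862% and 1.26% of 9280. These shares are descriptions, and the part of listed CpGs that carry an SNV in them was not tested.

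Sequences recognized by liver transcription factors were then searched in both strains, as exact letters on both strands, and windows with a match in one strain only were set beside the direction of the call. FOXA was searched as TGTTTAC or TGTTTGC and was found in 17.1% of all windows, ONECUT as ATTGATT in 5.85%, HNF4A as CAAAGTCCA or CAAAGGTCA in 1.43%, and C/EBP as TTGCGCAA, TTGCACAA or TTGTGCAA in 1.55%. Windows with the FOXA letters in both strains were called in 0.617%. A match is a description of letters and not a bound site.

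In most called windows the strain that held the letters had the lower methylation. FOXA letters were in B6 only in 1175 windows, of which 40 were called and 32 were lower in B6, and in C3 only in 1149, of which 43 were called and 34 were lower in C3. For HNF4A, 12 of 13 calls were lower in B6 where B6 alone had the letters, and 5 of 7 were lower in C3 where C3 alone had them. The 6 calls with C/EBP letters in B6 only were all lower in B6, and the 7 with them in C3 only were all lower in C3. For ONECUT the counts were 18 of 21 and 21 of 24. USF letters, CACGTG, gave 22 of 32 and 29 of 41 (9.29% of windows hold them, and each is also a CANNTG). AP1 (TGANTCA, in 14.2% of windows) gave 6 of 15 and 10 of 16, and the general E-box (CANNTG, in 94.0%) gave 6 of 15 and 12 of 22. ETS letters (CCGGAAGT, in 0.710%) gave 0 of 1 and 1 of 3, and the longer HNF1, NRF1 and CTCF motifs had 2, 4 and 3 called windows in all. All of the calls that were lower in the strain with FOXA, HNF4A, C/EBP or ONECUT letters had the same direction in the sires. So did 99.6% of all called windows, with or without such letters. Beside these, 0.780% and 0.826% of all windows with an SNV were called higher in B6 and in C3, and 2.96% of windows with FOXA letters in C3 only were higher in B6. At a C3 to B6 depth ratio of 0.67 to 1.5, an alternative chosen after the data were seen, fewer windows were called. The calls lower in the strain with the letters made up 76.0% for FOXA, 85.7% for HNF4A, all 7 for C/EBP and 87.9% for ONECUT. With C/EBP letters in B6 only, 1 of 115 windows was called at this depth, beside 6 of 151 without the limit. With them in C3 only, the counts were 6 of 124 and 7 of 156.

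**Figure D4:**
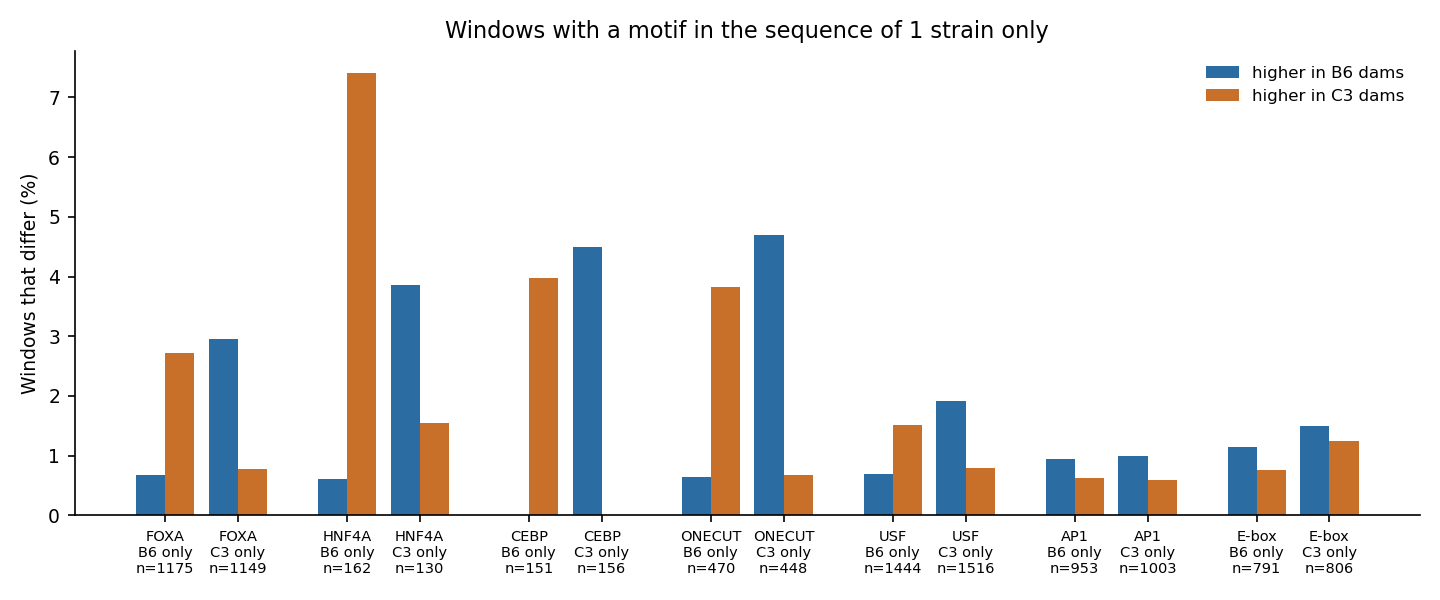
Percent of windows called (vertical axis) among windows with a motif's letters in B6 only or in C3 only, with bars for calls higher in B6 and higher in C3 and the number of windows (n) under each pair. For FOXA, HNF4A, CEBP and ONECUT the taller bar is that of the strain without the letters, as at FOXA in C3 only, where 2.96% were higher in B6 and 0.783% higher in C3.

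Of these windows, 8 with large differences are shown because a single base in each separates a match from a non-match. Each is mm9 sequence, with capitals on the letters that match in one of the strains, and substitutions are counted as above.
FOXA in C3 only, Sox5 intron, chr6:144406156-144406242, minus strand: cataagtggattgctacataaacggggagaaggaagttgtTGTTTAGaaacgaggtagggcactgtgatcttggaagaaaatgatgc
FOXA in C3 only, Cdk17 intron, chr10:92718142-92718228, plus strand: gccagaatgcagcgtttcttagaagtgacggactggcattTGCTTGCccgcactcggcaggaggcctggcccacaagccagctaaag
HNF4A in B6 only, Klf11 exon, chr12:25340078-25340166, plus strand: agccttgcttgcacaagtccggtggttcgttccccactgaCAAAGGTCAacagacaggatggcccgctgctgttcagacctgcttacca
HNF4A in C3 only, Shmt1 intron, chr11:60609735-60609823, plus strand: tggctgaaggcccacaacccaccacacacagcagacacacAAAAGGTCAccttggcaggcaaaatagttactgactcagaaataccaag
CEBP in B6 only, Fez2 intron, chr17:78779200-78779287, plus strand: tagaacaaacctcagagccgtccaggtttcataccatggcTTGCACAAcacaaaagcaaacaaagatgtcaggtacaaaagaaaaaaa
CEBP in C3 only, intergenic at Eif2a, chr3:58311896-58311983, plus strand: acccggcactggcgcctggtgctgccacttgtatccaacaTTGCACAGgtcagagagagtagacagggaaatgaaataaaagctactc
ONECUT in B6 only, chromosome 14, chr14:48527559-48527645, plus strand: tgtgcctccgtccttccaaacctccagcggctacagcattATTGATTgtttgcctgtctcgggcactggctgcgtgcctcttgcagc
ONECUT in C3 only, Gm7247 intron, chr14:52100341-52100427, minus strand: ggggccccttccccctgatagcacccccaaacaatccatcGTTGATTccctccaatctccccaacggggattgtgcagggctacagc
The substitutions inside the capitals are, in this order, G47C, C43T, T47C, A41C, T42A, G48A, A41C and G41A. The last 4 windows were chosen after their values were seen, as the largest differences with C/EBP or ONECUT letters in one strain only.

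In the Sox5 intron, in a gene for a developmental transcription factor, the C3 base completes TGTTTAC, and the C3 dams stood at 17.4, 22.7 and 23.4% where the B6 dams stood at 89.0, 89.7 and 89.8% (limma adjusted p = 7.21e-10). In the Cdk17 intron C3 dams stood at 7.52, 8.85 and 14.3% and B6 dams at 68.9, 72.2 and 70.2%. In an exon of Klf11, a Krüppel-like repressor, the HNF4A letters were whole in B6, and B6 dams stood at 20.0, 14.6 and 20.5% with C3 dams at 84.0, 87.8 and 79.6%. The Shmt1 window went against this order: the C3 base completes the HNF4A letters, yet C3 dams stood at 86.2, 82.1 and 83.0% and B6 dams at 17.9, 15.4 and 22.0%. Shmt1 encodes a serine hydroxymethyltransferase of one-carbon metabolism. In the Fez2 intron the C/EBP letters were whole in B6, at 36.6, 25.4 and 24.2%, and broken in C3, at 92.1, 92.0 and 96.7%. At the region 17743 bp from Eif2a they were whole in C3, at 28.3, 26.7 and 26.3% with 5.76 reads per CpG, and broken in B6, at 77.6, 80 and 77.0%. The ONECUT letters were whole in B6 at the chromosome 14 region described above, which was lower in B6. In Gm7247 they were whole in C3, where the C3 dams stood at 2.62, 2.69 and 5.47% and the B6 dams at 83.4, 82.0 and 80.5%. Of these windows, only the one near Eif2a holds no other SNV, and the part of the motif base in the difference was not tested.

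Gene lists of liver functions were read by their counts of called windows, over each gene with 2000 bp before its start, beside the 0.541% of all windows and 22.1% of windows with an SNV. A level given for a gene of a list is that of 1 called window in it. In most of these windows a C3 dam had fewer reads per CpG than a B6 dam, also where no depth is given. Cytochrome P450 genes, which oxidize drugs, steroids and fatty acids, had 8 windows higher in B6 and 12 higher in C3 of 1323 (1.51%, with an SNV in 24.3%). The largest was in an exon of Cyp46a1, a cholesterol hydroxylase, where B6 dams stood at 9.02, 8.07 and 9.65% and C3 dams at 79.4, 70.8 and 77.6% over 26 CpGs, at 9.92 reads per CpG in C3 (chr12:109591001-109591500). Cyp46a1 alone held 5 of the list's 8 windows higher in B6 and 2 of its 12 higher in C3. Genes entered this list by the start of their name, so the 1.51% rests in part on this gene. The promoter of Cyp2c44, an arachidonic acid epoxygenase, stood at 36.6, 34.5 and 30.9% in B6 and 80.8, 88.7 and 82.4% in C3 (chr19:44103501-44104000), and the gene had 1 called window higher in B6 and 4 higher in C3. Conjugation enzymes had 2 and 3 of 702 (0.712%, with an SNV in 11.7%). Sult2b1, a sterol sulfotransferase, stood at 11.1% ± 2.59 (SD, n = 3) in B6 and 50.98% ± 13.6 (SD, n = 3) in C3 on 7.17 reads per CpG. A Gsta4 intron had 91.9% ± 3.50 (SD, n = 3) and 61.3% ± 8.56 (SD, n = 3), on 5.62 reads per CpG in C3 beside 15.8 in B6.

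Hepatocyte transcription factors had 4 windows higher in B6 and 14 higher in C3 of 1880 (0.957%, with an SNV in 23.4%), in 8 of 27 genes. Ppara, the nuclear receptor of fatty acid oxidation, had an intronic window higher in B6, at 72.2, 79.5 and 66.1% against 18.8, 18.3 and 27.6% (chr15:85591501-85592000), although 4 of its 5 called windows were higher in C3. Rora, an orphan nuclear receptor that is also in the clock list, had one higher in C3, at 35.0, 31.7 and 35.3% against 87.0, 80.8 and 83.3%, with 7.75 reads per CpG in C3 beside 25.8 in B6, while its called windows were 2 higher in B6 and 3 higher in C3. Circadian clock genes had 7 and 13 of 1648 (1.21%, with an SNV in 33.4%). They included an exon of Arntl, the BMAL1 activator, at 47.0, 38.8 and 41.9% in B6 and 89.5, 88.2 and 90.8% in C3. Both lists share Rora and the PAR bZIP genes and so are not separate counts. The list of prolactin, growth hormone and steroid response had 5 and 4 of 2302 (0.391%), with a window in Esr1, the estrogen receptor, at 83.4% ± 1.05 (SD, n = 3) in B6 and 39.5% ± 9.59 (SD, n = 3) in C3, among 2 called windows in each direction. A window of Thrb, a thyroid hormone receptor, had 62.0% ± 2.30 (SD, n = 3) and 25.8% ± 3.77 (SD, n = 3), on 9.13 reads per CpG in C3. The gene had 2 called windows higher in B6 and 1 higher in C3.

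Complement, coagulation and acute phase genes, which encode plasma proteins made by the liver, had 8 and 6 of 1123 (1.25%, with an SNV in 14.96%). Mbl2, the mannose-binding lectin, had 66.1, 63.2 and 64.3% in B6 dams and 19.2, 20.6 and 15.2% in C3 dams. A window 1899 bp from C1qb, a subunit of complement C1q, had 44.4, 39.5 and 40.6% and 73.1, 85.9 and 70.7%, on 9.11 reads per CpG in C3. Serpins had 3 and 0 of 585 (0.513%). Antithrombin, Serpinc1, which is in both lists, stood at 91.8% ± 1.95 (SD, n = 3) in B6 and 58.8% ± 5.50 (SD, n = 3) in C3, on 9.67 reads per CpG in C3. Serpina12, or vaspin, stood at 83.4% ± 4.34 (SD, n = 3) and 48.0% ± 5.45 (SD, n = 3). Genes of glucose and nitrogen metabolism had 6 and 4 of 754 (1.33%, with an SNV in 29.4%). Agxt, the peroxisomal enzyme of glyoxylate removal, stood at 67.9% ± 5.84 (SD, n = 3) and 39.8% ± 7.04 (SD, n = 3). An intronic window of Cps1, the first enzyme of the urea cycle, stood at 57.4% ± 1.88 (SD, n = 3) and 31.2% ± 4.66 (SD, n = 3), on 8.96 reads per CpG in C3. The 1 other called window of the gene was higher in C3. Lipid and lipoprotein genes lay at the background with 4 and 6 of 1891 (0.529%). Among them Dgat2, of triglyceride synthesis, had 5.34% ± 3.25 (SD, n = 3) in B6 and 44.9% ± 4.40 (SD, n = 3) in C3, and Acaca, of fatty acid synthesis, had 43.8% ± 1.23 (SD, n = 3) and 76.7% ± 8.18 (SD, n = 3). Uptake and efflux transporters had 4 and 4 of 3337 (0.240%), with Abcc6 at 24.2% ± 4.31 (SD, n = 3) against 82.7% ± 6.14 (SD, n = 3) and Abcc1 at 73.7% ± 3.83 (SD, n = 3) against 42.3% ± 5.28 (SD, n = 3). C3 dams had 12.6 reads per CpG beside 34.2 in B6 at Abcc6, and 13.5 beside 42.1 at Abcc1.

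The major histocompatibility genes had 0 windows higher in B6 and 4 higher in C3 of 212 (1.89%), with an SNV in 57.5% of their windows. Tap1, which pumps peptides for class I presentation, held 3 of these windows, and its exon stood at 35.6, 28.2 and 24.5% in B6 dams and 93.1, 90.4 and 91.3% in C3 dams (chr17:34328501-34329000). The H2-Oa promoter stood at 48.9% ± 3.13 (SD, n = 3) and 72.8% ± 6.28 (SD, n = 3). Innate immune clusters had 8 and 4 of 923 (1.30%, with an SNV in 32.4%). Klrb1b, a receptor of natural killer cells, stood at 41.0, 38.8 and 50.3% in B6 and 93.4, 98.4 and 93.9% in C3. In Klra17 the gap was 77.8 points, but the C3 dams had 4.50 reads per CpG beside 31.3 in B6. Klra17, Zfp933, Vmn1r112 and Mup2 belong to families of near-identical copies, and their values are uncertain. At Mup2 the depth was higher in C3, at 33.1 reads per CpG beside 12.9, with 72.6% ± 4.22 (SD, n = 3) in B6 and 47.7% ± 6.10 (SD, n = 3) in C3, the single call of 74 windows at major urinary protein genes (1.35%). Olfactory and vomeronasal receptors had 6 and 1 of 1867 (0.375%), with Vmn1r112 at 86.1% ± 1.25 (SD, n = 3) against 42.1% ± 3.74 (SD, n = 3) and Olfr90 at 18.7% ± 0.680 (SD, n = 3) against 55.2% ± 7.29 (SD, n = 3). Zinc finger genes had 29 and 25 of 9535 (0.566%), with Zfp704 at 83.5, 90.5 and 89.0% in B6 and 11.8, 27.0 and 36.0% in C3 (the gene had 4 called windows in each direction) and Zfp933 at 96.5% ± 0.393 (SD, n = 3) and 36.6% ± 10.9 (SD, n = 3).

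Lists with known roles in methylation or development were read beside the same 0.541%. Imprinted genes, expressed from 1 parental allele, had 3 and 3 of 1556 (0.386%), with an exon of Slc38a4 at 53.1, 51.7 and 44.7% in B6 and 72.8, 79.4 and 84.0% in C3 and an exon of Grb10 at 87.9, 86.5 and 82.2% and 61.2, 58.1 and 56.5%. Genes of the DNA methylation machinery had 0 and 4 of 868 (0.461%), in Dppa3, a maternal factor that protects the zygote's methylation, at 42.4, 32.1 and 40.7% and 71.7, 81.0 and 56.3%, and in Mbd4, a thymine glycosylase, at 59.3, 54.2 and 56.8% and 76.6, 79.2 and 80.4%. The Hox clusters had 1 call of 519 (0.193%), at the Hoxc4 promoter. It stood at 20.4, 19.4 and 24.3% in B6 dams and 53.0, 35.1 and 38.7% in C3 dams (adjusted p = 0.00756, limma). The call was lost without B6 dam 2 (−19.9 points, B6 minus C3), without C3 dam 1 (−15.6 points) and with counts thinned to the shallowest dam, and the sires went the other way, at 21.4, 24.6 and 43.6% in B6 and 33.9, 20.9 and 21.9% in C3.

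The 228 called windows in bins without an SNV were set apart, since their bins hold no listed base difference. A window at the edge of a bin may still lie near an SNV of the next bin. They fell in 155 bins, had a median C3 to B6 depth ratio of 1.01 and a median difference of 24.8 points, and 10.1% were at promoters, beside 4.85% of all windows in these bins and 6.20% of called windows with an SNV. The median SD of the dams was 3.74 points in B6 and 4.49 points in C3, beside 3.16 and 3.96 points in called windows with an SNV. Besides Akr1e1 and the regions near Creb3l2 and on chromosome 13 given above, they included chr4:24817501-24818000, 7230 bp from Ndufaf4, at 79.8, 72.5 and 76.4% in B6 and 22.4, 15.1 and 20.1% in C3, and chr1:54256501-54257000, 4623 bp from Hecw2, at 85.7, 84.0 and 81.0% and 25.4, 24.8 and 32.9%. A window 25935 bp from Rab1 stood at 94.0, 96.6 and 94.8% and 28.8, 34.8 and 42.5%, with 9.90 reads per CpG in C3 and 26.9 in B6 (chr11:20075001-20075500). Insertions, deletions and larger variants are not in the SNV list, and their part was not tested.

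The sires, which took no part in choosing the windows, showed nearly the same strain differences. Of the 7922 windows called in dams, 7892 (99.6%) had the same direction in sires, beside 61.6% of all windows, and in 94.7% the B6 and C3 sires did not overlap, beside 18.9% of all. Tested on their own, the sires gave 8079 calls (0.552%), and 5409 windows were called in both, which is 68.3% of the dams' windows and 66.95% of the sires'. The median difference in sires at the dams' windows was 24.4 points. All 1068 windows with 40 points or more in dams kept their direction in sires, and 97.8% of them were called there. In bins without an SNV, 226 of 228 windows kept their direction and 114 were called in sires. The strain by sex interaction, tested with limma over all windows, passed an adjusted p of 0.05 in 16 windows (0.00109%), 4 of them called in dams, and 79259 windows (5.42%) had an unadjusted p below 0.05.

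F1 daughters lay between the dams in nearly all called windows, but on average nearer to B6. On a scale on which the C3 dams are 0 and the B6 dams are 1, with differences summed over all called windows, the 3 B6C3F1 daughters stood at 0.604, 0.608 and 0.602 and the 3 C3B6F1 daughters at 0.606, 0.601 and 0.600. Their mean was 0.603 ± 0.00290 (SD, n = 6), above the midpoint of 0.5 in 6 of 6 daughters (two-sided exact sign-flip permutation p = 0.03125, the smallest 6 animals can give). All 6 positions share the same windows and dam means, so this p covers the spread of the daughters and no error in the ends. The crosses did not differ by more than their spread, at 0.604 ± 0.00284 and 0.602 ± 0.00315 (SD, n = 3, exact permutation p = 0.5, where the smallest possible is 0.1). The daughters' mean was between the dams' means in 7772 windows (98.1%). In 6059 windows (76.5%) the position was 0.25 to 0.75, in 1590 (20.1%) it was above 0.75 and in 273 (3.45%) below 0.25. With ends taken from the sires instead of the dams, the mean position was 0.600.

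The position moved with read depth. It was 0.689 in the 2863 windows where C3 dams had less than 0.67 times the B6 depth, 0.555 in the 5006 windows at 0.67 to 1.5, 0.536 in the 2089 windows at 0.9 to 1.1, a range chosen after the data were seen, and 0.528 in the 228 windows of bins without an SNV. It also differed with direction, at 0.655 where B6 was higher and 0.555 where C3 was higher. In each of these subsets all 6 daughters were above 0.5. F1 reads were also aligned to mm9, and the part of lost C3 reads in the shift was not tested.

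**Figure D5:**
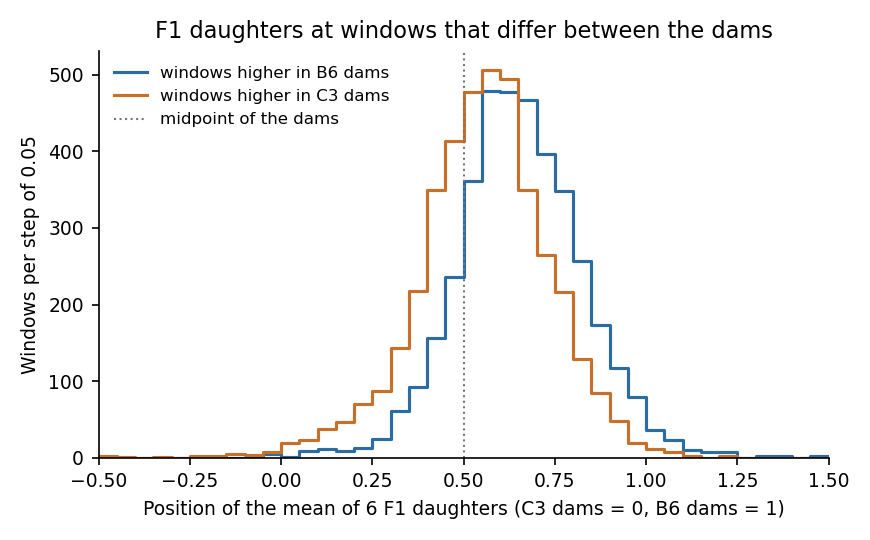
Distribution over called windows of the mean position of the 6 F1 daughters, on a scale where the C3 dams are 0 and the B6 dams are 1 (horizontal axis), as numbers of windows, for windows higher in B6 and windows higher in C3. Both distributions peak between 0.5 and 0.7, with medians of 0.650 for windows higher in B6 and 0.562 for windows higher in C3.

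Single regions show how the daughters differ from the average. At P2ry12 they stood at 53.1% ± 5.93 and 52.1% ± 6.02 (SD, n = 3) in B6C3F1 and C3B6F1, a position of 0.590. At the Akr1e1 promoter they stood at 49.3% ± 2.35 and 55.3% ± 6.88 (SD, n = 3), a position of 0.314 and so nearer to C3. At Wnt5a they stood at 48.4% ± 0.936 and 38.8% ± 2.28 (SD, n = 3), and the 47.4, 48.7 and 49.2% of B6C3F1 lay beside the 41.0, 36.5 and 39.0% of C3B6F1. At the exon of Slc38a4 the daughters of both crosses stood at the level of the B6 dams, with 49.3% ± 3.86 and 48.4% ± 7.67 (SD, n = 3). The crosses differed by 20 points or more without overlap in 13 of the 7922 called windows (0.164%), beside 37 of all 1463020 windows (0.00253%).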

How the data were processed

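Liver DNA of 24 animals in 8 groups of 3 was bisulfite sequenced, and the 6 dams are compared here. The authors aligned reads to mm9 with Bismark 0.7.8 and Bowtie 0.12.8 and removed duplicates with Bismark's own tool, per the labels, the study's methods and the submitters' processing notes (which also list CASAVA 1.8.2 and Picard 1.110). They deposited methylated and unmethylated counts per CpG for CpGs described as present in mm9 and both strains, although 2289 C or G bases of these carry a listed SNV, and a list of SNVs, of which 2811885 are autosomal. All 48 count columns were mapped to animals by name, and 0 were left unused. Chromosome X was left out, and the single-nucleotide calls were used as positions and bases only.

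Counts were summed in 500-bp windows (5 CpGs, 30 counts in each dam) and log2((methylated + 1)/(unmethylated + 1)) was tested with limma 3.58.1 (trend and robust variances, R 4.3.3), Benjamini-Hochberg adjusted over 1463020 windows. Levels are group means of per-animal weighted methylation. Single CpGs with 5 reads in at least 2 dams per strain were tested by a beta-binomial Wald test without smoothing, coded from the DSS model, with Python 3.11.15, numpy 2.4.6, scipy 1.17.1 and numba 0.67.0. The tests were tested on simulated data. Replicate animals give n = 3, and levels rest on 19.4 to 32.1 reads per CpG in a dam. Reads were not counted by molecular identifiers, so counting error alone is covered by depth.

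Touching called windows of one direction were merged. Named are the 6 regions per direction of largest difference with 10 CpGs and 10 reads per CpG in each dam and without TG or CA repeats at most CpGs, the 5 promoters, the 2 longest runs, the 3 largest differences in 100-kb bins without an SNV, up to 2 genes per list of 18, the called windows with an interaction, and the 2 largest differences per direction with FOXA, HNF4A or C/EBP letters in one strain. One of the named regions is not reported here. Members and lists were chosen with earlier results of these data known, and the markers, lists and tests are not independent of them. Genes are of the annotation that matches mm9, and coordinates are 1-based. Alternatives covered the size of the difference, filters, pseudocount, scale, the window grid, depth, SNVs, repeats, all 24 animals, the replicate block and leaving out each dam.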

Additional observations from a re-analysis of the deposited data

Results flagged for a closer look

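In 4 windows called in the dams, the strain difference of the dams and that of the sires differed in limma's test of the interaction, adjusted by Benjamini-Hochberg over all windows. The value given is the log2 ratio difference (B6 minus C3) in dams minus that in sires.

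At chr4:101333501-101334000, 13103 bp from Leprot, a gene that shares its promoter with the leptin receptor, the interaction was 2.72 (adjusted p = 0.0300). The dams stood at 91.3, 88.0 and 91.4% in B6 and 37.6, 30.0 and 36.8% in C3, and the sires at 90.1, 84.5 and 86.2% and 76.9, 77.4 and 64.4%. C3 sires were thus nearer to B6 than C3 dams were, on 10.7 reads per CpG in a C3 dam.

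At chr11:59745501-59746000, 15708 bp from Med9, a subunit of the Mediator complex, the interaction was 2.69 (adjusted p = 0.00914) and the direction turned. The dams stood at 65.2, 71.0 and 64.6% in B6 and 40.5, 38.5 and 47.3% in C3, and the sires at 71.8, 70.9 and 66.2% and 86.1, 85.5 and 81.5%. Daughters were above both kinds of dam, at 78.6% ± 4.89 in B6C3F1 and 79.7% ± 1.48 in C3B6F1 (SD, n = 3).

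At chr6:28782501-28783000, a CpG-dense window 754 bp from the start of Lrrc4, a synaptic adhesion gene that lies inside Snd1, the interaction was 2.50 (adjusted p = 0.0434). Over 68 CpGs the dams stood at 43.7, 53.0 and 57.9% and 18.9, 23.1 and 18.5%, and the sires at 28.2, 35.2 and 33.2% and 46.6, 35.8 and 34.9%.

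In an intron of Srgap3 (chr6:112823001-112823500, 5 CpGs), the interaction was −2.51 (adjusted p = 0.0300). B6 dams were low, at 18.0, 15.2 and 23.4%, beside C3 dams at 65.9, 68.6 and 72.5%, B6 sires at 59.8, 57.9 and 52.6% and C3 sires at 60.7, 70.3 and 74.2%. Between dams and sires, sex differs together with pregnancy and nursing, and the part of each was not tested. The 6 F1 daughters, which were not bred, stood at 76.7% ± 4.42 near Leprot, 24.6% ± 5.19 near Lrrc4 and 45.4% ± 3.52 in Srgap3 (SD, n = 6).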

How the results depend on the processing

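The count of called windows, 7922, moved with the size asked of a difference (25663 at 10 points and 2707 at 30 points), with a minimum of 100 counts in every dam (4035), and with C3 to B6 depth ratios limited to 0.67 to 1.5 (5002). It lay between 7797 and 8796 under no minimum of counts, a pseudocount of 5, an arcsine scale, all 24 animals, thinned counts, shifted windows and TG or CA repeats left out, and was 6988 without CpGs within 10 bp of an SNV. Leaving out 1 dam at a time gave 7921 to 8579, with 7151 to 7289 of the 7922 called again. B6 was higher in 44.7 to 50.2% of calls throughout. The replicate numbers did not pair the dams, since deviations of same-numbered dams correlated at 0.0120, −0.00626 and −0.00188 over windows. With the replicate number as a block, 7961 windows were called, 7921 of them shared.

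Called CpGs, 36403, fell to 21457 with counts averaged over 250 bp on either side, without the excess in B6 (10712 and 10745 instead of 20298 and 16105), and ranged from 27394 to 32912 without 1 dam. The excess in B6 stayed under every other alternative for CpGs. The difference over all CpGs ranged from −1.704 to −1.275 points without 1 dam and was −0.684 as a mean over CpGs. The daughters' position ranged from 0.592 to 0.614 without 1 dam. Depth at called windows was 0.768 instead of 0.792 at 40 points or more. The share called with and without an SNV was 1.21% and 0.114% when SNVs within 1 kb counted, and 1.18% and 0.171% at depth ratios of 0.67 to 1.5, beside 1.61% and 0.240%.

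Each of the 75 named windows and regions was rechecked, a region of several windows by its first window alone. Those at chr13:4941501-4942500 and Hoxc4 lost their call under an alternative. The second window of the chromosome 13 region, with 29 CpGs, was named on its own too. It lost its call under no alternative that tested it. The first window had a limma adjusted p of 0.0453, and of 0.0622 with the replicate block. The value was 0.154 to 0.210 without a C3 dam and 0.0611 to 0.148 under 5 other alternatives (filters, pseudocount and CpGs near SNVs). Hoxc4 differed by −19.9 points (B6 minus C3) without B6 dam 2 and with thinned counts, and had an adjusted p of 0.0503 without C3 dam 1. Of the 75, 34 were not tested at 100 counts, 29 at depth ratios of 0.67 to 1.5, 6 with thinned counts, 5 without CpGs near SNVs and 3 with all 24 animals. No direction reversed among the named windows where they were recomputed. The direction with more calls did change. With no minimum of counts, 4419 windows were higher in B6 and 4377 higher in C3, beside 3870 and 4052. Limits on sires and motifs by depth, on sires by 40 points, and on daughters at depth ratios of 0.9 to 1.1 were chosen after seeing the data. Intervals for single windows were not computed, and windows at few reads per CpG in C3 are the least precise.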
